A study of Mus musculus with 8 samples.

Results

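The genes described are the 6 chains of the receptors for interleukin-10 (IL-10), interferon gamma and type I interferon (Il10ra, Il10rb, Ifngr1, Ifngr2, Ifnar1 and Ifnar2), and the kinases Jak1 and Tyk2 that these chains bind, 8 in all. They were picked by symbol from the deposited normalized table, which holds 16418 genes, and all 8 were found there and were among the 11772 genes with enough reads to be tested. The samples were 8 RNA-seq libraries of naive CD4 T cells (CD3+CD4+CD25-CD44low/-CD62L+), sorted from mouse spleen and lymph node. The KO group (Sample_2907_KO, Sample_2908_KO, Sample_2909_KO and Sample_2910_KO) came from Satb1fl/fl x CD4-CreERT2wt/+ mice given tamoxifen, and the WT group (Sample_2911_WT, Sample_2913_WT, Sample_2914_WT and Sample_2915_WT) from untreated mice of that same genotype. The controls therefore carried the floxed Satb1 alleles and the tamoxifen-inducible Cre, whose name places it under CD4 sequences, but received no drug. Tamoxifen and the intended deletion coincide and cannot be told apart. No source used here gives the ages of the mice or says that each sample was a separate animal, so errors measure the spread between samples, which may be technical.

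The receptors belong to the class II cytokine receptor family. Each is built from a ligand-binding chain and a second chain: IL10RA with IL10RB, IFNGR1 with IFNGR2, and IFNAR2 with IFNAR1. The chains have no enzyme activity of their own and carry Janus kinases, JAK1 on the IL10RA, IFNGR1 and IFNAR2 chains and TYK2 on IL10RB and IFNAR1, while IFNGR2 carries JAK2. Ligand brings the chains together, and the kinases then phosphorylate STAT proteins, chiefly STAT3 for IL-10, whereas type I interferon uses a complex that holds STAT2 and IRF9.

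Of the receptor genes, 4 lie side by side on mouse chromosome 16 (GRCm38, the assembly behind mm10), all on the plus strand, in a stretch of 193 kb. From left to right these are Ifnar2 (chr16:91372783-91405589), Il10rb (chr16:91406164-91425834), Ifnar1 (chr16:91485238-91507441) and Ifngr2 (chr16:91547072-91565623). Only 574 bp separate Ifnar2 from Il10rb. The remaining chains are elsewhere, Il10ra on chromosome 9 (chr9:45253837-45269149, minus strand) and Ifngr1 on chromosome 10 (chr10:19591949-19610229, plus strand). Tyk2 (chr9:21104068-21131243) and Jak1 (chr4:101152367-101265282) are on minus strands.

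The promoters of both interferon receptor pairs are shown because in each pair one chain separated KO from WT libraries and its partner did not. Each runs from 250 bases before to 50 bases after the gene start, 5′ to 3′ on the gene's own strand, from RefSeq (GRCm38.p6), which gave promoters for 6 of the 8 genes. Capitals mark matches, on either strand, to the GC box GGGCGG bound by SP1-type factors, the CCAAT box, and the STAT site GAS, spelled TTCNNNGAA.
Ifngr1 (chr10:19591699-19591998): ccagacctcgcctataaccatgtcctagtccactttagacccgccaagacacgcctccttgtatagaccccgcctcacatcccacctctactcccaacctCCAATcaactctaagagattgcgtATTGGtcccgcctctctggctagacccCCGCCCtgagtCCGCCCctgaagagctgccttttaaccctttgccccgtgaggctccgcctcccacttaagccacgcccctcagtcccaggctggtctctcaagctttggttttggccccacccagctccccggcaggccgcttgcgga
Ifngr2 (chr16:91546809-91547108): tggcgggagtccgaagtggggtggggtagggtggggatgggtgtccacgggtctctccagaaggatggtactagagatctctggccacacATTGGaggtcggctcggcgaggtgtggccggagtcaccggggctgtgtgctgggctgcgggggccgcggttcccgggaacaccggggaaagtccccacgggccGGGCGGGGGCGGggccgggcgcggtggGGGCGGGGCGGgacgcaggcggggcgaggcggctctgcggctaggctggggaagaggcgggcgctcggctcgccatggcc
Ifnar2 (chr16:91372533-91372832): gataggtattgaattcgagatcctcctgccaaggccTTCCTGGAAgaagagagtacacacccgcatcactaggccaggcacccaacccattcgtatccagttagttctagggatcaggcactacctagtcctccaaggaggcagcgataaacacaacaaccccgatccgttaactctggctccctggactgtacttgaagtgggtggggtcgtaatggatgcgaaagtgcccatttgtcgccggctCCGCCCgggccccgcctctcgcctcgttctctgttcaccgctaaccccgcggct
Ifnar1 (chr16:91484965-91485264): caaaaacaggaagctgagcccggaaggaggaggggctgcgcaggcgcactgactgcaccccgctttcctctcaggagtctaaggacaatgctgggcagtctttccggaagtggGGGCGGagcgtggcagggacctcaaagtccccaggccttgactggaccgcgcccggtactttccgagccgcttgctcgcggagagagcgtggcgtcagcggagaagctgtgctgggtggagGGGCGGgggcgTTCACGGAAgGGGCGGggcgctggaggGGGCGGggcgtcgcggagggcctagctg
Counting the first transcribed base as 1, a GAS match began at position -214 of Ifnar2 (TTCCTGGAA) and at -5 of Ifnar1 (TTCACGGAA), and neither Ifngr promoter held one. Among 32851 RefSeq promoters of the same length, 8.30% held a GAS match. The interferon-stimulated response element, searched on both strands as 2 copies of GAAA with any 2 bases between them, matched in none of the 6 promoters, against 3.44% of all. GC boxes matched 2 times in Ifngr1, 4 times in Ifngr2, 1 time in Ifnar2 and 4 times in Ifnar1, and 35.7% of all promoters held at least 1. The CCAAT box matched 2 times in Ifngr1 and 1 time in Ifngr2, against 37.4% of all. The GC boxes at -30 and -25 of Ifngr2 overlap by a base, and no other matches printed here do. The Ifngr2 window was 74.3% G and C, that of Ifngr1 60.3%, and the median promoter 52.7%.

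The libraries held 7544075 to 9253620 counted reads in KO and 5227758 to 21998174 in WT, where Sample_2911_WT was the shallowest and Sample_2914_WT the deepest. Satb1 ranged from 840 to 1032 CPM (TMM-scaled counts per 1000000 reads) in KO libraries and from 987 to 1083 CPM in WT libraries, and its log2 fold change of -0.18 (SE 0.059) missed the threshold of the test used here, edgeR's quasi-likelihood F test across all genes with a Benjamini-Hochberg adjusted p under 0.05 (adjusted p = 0.0582). The Satb1 ranges of the groups overlapped, and because a count over the whole gene also takes reads from exons outside a deleted part, it does not check the deletion. KO and WT below therefore mean the libraries labelled so. All 14 naive CD4 T cell markers were detected at levels high enough to be tested. The 10 B cell markers summed to 359.9 to 415 CPM in KO and 446 to 485 CPM in WT, nearly all of it Ighm. Of the 10, 4 had enough reads to be tested: Ighm, Cd79a, Cd79b and Ighd. Ms4a1, another of the B cell markers, had 3 reads in KO and 0 in WT.

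Of the 8 genes 3, Il10ra, Ifngr1 and Ifnar2, were higher in KO and past the threshold, and 0 were lower. Over all tested genes 6.39% passed in either direction, 3.98% passed upwards and 2.41% downwards. The same 3 genes had all KO libraries above all WT libraries, where 6.23% of all tested genes did. Because these genes were proposed with the KO and WT difference already known, this count and the fold changes that follow are a description, and no p is given for them. The log2 fold change was above 0 in 7 of the 8 genes, with a median of 0.21, beside a median of -0.00047 over all tested genes. Each of the 8 had between 146 and 27901 reads in each library, and its coefficient of variation within a group lay between 1.40% and 13.1%.

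**Figure D1:**
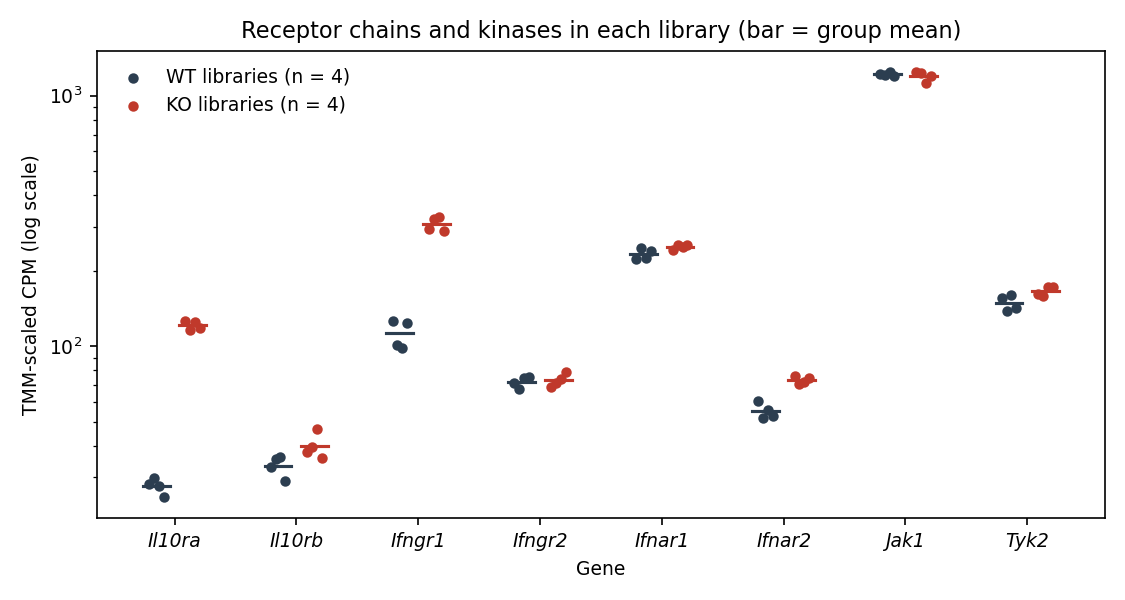
TMM-scaled CPM (log scale) of the 8 genes in each of 4 WT and 4 KO libraries; points are libraries and bars are group means. Il10ra lies between 116 and 126 CPM in KO and between 25.1 and 29.9 CPM in WT, whereas the Jak1 and Ifngr2 libraries of the groups overlap.

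Il10ra encodes the ligand-binding chain that makes a cell responsive to IL-10, a cytokine that restrains inflammation. Its level was 126, 116, 125 and 118 CPM in the KO libraries (in the order of their numbers) and 28.2, 29.9, 27.5 and 25.1 CPM in the WT libraries. The groups were far apart, with 86.2 CPM between the lowest KO and the highest WT library, and within each group the libraries were close. Mean levels were 121 ± 4.96 CPM (KO) against 27.7 ± 1.99 CPM (WT; SD over 4 libraries), a log2 fold change of 2.14 (SE 0.075) or 4.42-fold. Only 7 of the 11772 tested genes had a higher log2 fold change than Il10ra, which ranked 8. A pseudogene (Gm20612, 20 reads in KO and 4 in WT) and a miRNA gene (Mir7086, 3 and 1) overlap it, and few reads were assigned to either.

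Il10rb encodes the shared second chain, which also serves the IL-22 and interferon lambda receptors. It stood at 37.7, 39.7, 46.6 and 35.8 CPM in the KO libraries, against 33.0, 35.3, 36.0 and 28.9 CPM in the WT libraries. The groups met: the lowest KO library lay 0.21 CPM below the highest WT library, Sample_2914_WT. Mean levels were 39.9 ± 4.71 CPM (KO) against 33.3 ± 3.19 CPM (WT; SD over 4 libraries), and the log2 fold change of 0.26 missed the threshold.

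Ifngr1 encodes the ligand-binding chain for interferon gamma, the signature cytokine of Th1 cells. It stood at 293, 322, 328 and 289.7 CPM in the KO libraries, against 127, 101, 98.5 and 124 CPM in the WT libraries. The groups were 163 CPM apart, and the WT libraries fell into a higher pair (Sample_2911_WT and Sample_2915_WT) and a lower pair. The means were 308 ± 19.6 and 113 ± 14.8 CPM (SD, n = 4 each), a log2 fold change of 1.46 (SE 0.076) or 2.75-fold, which ranked 31 among all tested genes.

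Ifngr2, the signalling partner of Ifngr1, was at 69.0, 71.5, 74.0 and 79.1 CPM in the KO libraries, against 71.0, 67.4, 74.3 and 75.6 CPM in the WT libraries. The ranges overlapped by 6.56 CPM, with Sample_2910_KO the highest and Sample_2913_WT the lowest. Its log2 fold change was 0.02 (SE 0.071), and its means were 73.4 ± 4.34 and 72.1 ± 3.66 CPM (SD, n = 4 each).

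Ifnar2 encodes the chain with the higher affinity for type I interferons. It was at 75.8, 70.5, 72.1 and 74.7 CPM in the KO libraries, against 60.6, 51.7, 55.8 and 52.8 CPM in the WT libraries. The groups did not overlap and were 9.89 CPM apart, the nearest WT library being Sample_2911_WT. The means of 73.3 ± 2.44 and 55.2 ± 3.98 CPM (SD, n = 4 each) differed by a log2 fold change of 0.41 (SE 0.073) or 1.33-fold.

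Ifnar1, the second chain of the type I receptor, was at 242, 252, 248 and 253 CPM in the KO libraries, against 223, 247, 226 and 239 CPM in the WT libraries. The ranges overlapped by 4.62 CPM. A log2 fold change of 0.09 (SE 0.054) missed the threshold. A gene model that spans Ifnar2 and Il10rb on the same strand (Gm21970) had 0 reads in KO and 0 in WT. How reads in exons shared with it were counted is not given in the sources used here.

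Neither kinase was past the threshold. Jak1, which all 3 receptors use, was at 1243, 1229.5, 1129 and 1204 CPM in the KO libraries, against 1226, 1214, 1244 and 1204 CPM in the WT libraries. The groups overlapped, with a log2 fold change of -0.02 (SE 0.050). Tyk2 was at 161, 159, 172 and 173 CPM in the KO libraries, against 155, 139, 160.1 and 141 CPM in the WT libraries. Its ranges overlapped by 1.42 CPM, and its log2 fold change was 0.16 (SE 0.061), short of the threshold.

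Per length of exon the genes could be ranked against each other, as TMM-scaled CPM per kilobase of merged exon (RPKM). In WT, Jak1 was highest at 169 ± 2.36 RPKM, followed by Ifngr1 (39.6 ± 5.20) and Ifnar1 (39.3 ± 1.88), whose ranges overlapped. Tyk2 (21.7 ± 1.52), Ifngr2 (19.1 ± 0.97) and Ifnar2 (16.6 ± 1.19) came next, and the ranges of the last pair overlapped. Il10rb (8.75 ± 0.84) and Il10ra (7.91 ± 0.57) were lowest and their ranges overlapped too, although Il10rb was the higher in 4 of 4 libraries (SD, n = 4 for each gene). In KO the order differed: Ifngr1 stood at 108 ± 6.89 RPKM, clear of Ifnar1 at 41.9 ± 0.85, and Il10ra moved from place 8 to place 4 at 34.7 ± 1.42 RPKM. Ifnar2 (22.01 ± 0.73) passed Ifngr2 (19.5 ± 1.15), and Il10rb was lowest at 10.5 ± 1.24 RPKM. In KO no neighbours in this order had overlapping ranges. With the longest transcript as length, however, Il10ra (34.7 ± 1.42) and Tyk2 (34.4 ± 1.52) overlapped in KO, and Il10rb (11.9 ± 1.14) and Il10ra (7.91 ± 0.57) no longer did in WT (RPKM, SD, n = 4).

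Within a library, the ratio of a receptor's chains needs no scaling between libraries. The ratio of Il10ra to Il10rb RPKM was 0.929, 0.922, 0.834 and 0.945 in the WT libraries and 3.63, 3.18, 2.93 and 3.60 in the KO libraries. All WT values were below 1 and all KO values were above it, with means of 0.908 ± 0.050 and 3.34 ± 0.34 (SD, n = 4 each). The ratio of Ifngr1 to Ifngr2 lay between 1.75 and 2.36 in WT and between 4.84 and 5.97 in KO. For Ifnar2 to Ifnar1 it lay between 0.374 and 0.484 in WT and between 0.498 and 0.558 in KO, which do not overlap but nearly meet. Jak1 exceeded Tyk2 in every library, 7.38 to 8.32 times in WT and 6.23 to 7.36 times in KO, ranges that again do not overlap but nearly meet. These ratios come from the same contrast as the fold changes and were not tested. Their absolute size depends on the exon length assigned to each gene, while the KO to WT quotient (3.68 for the IL-10 receptor pair and 2.69 for the interferon gamma pair) does not. For Il10rb and Ifnar2, the ratios and the places in the order above may also depend on how reads shared with Gm21970 were counted.

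**Figure D2:**
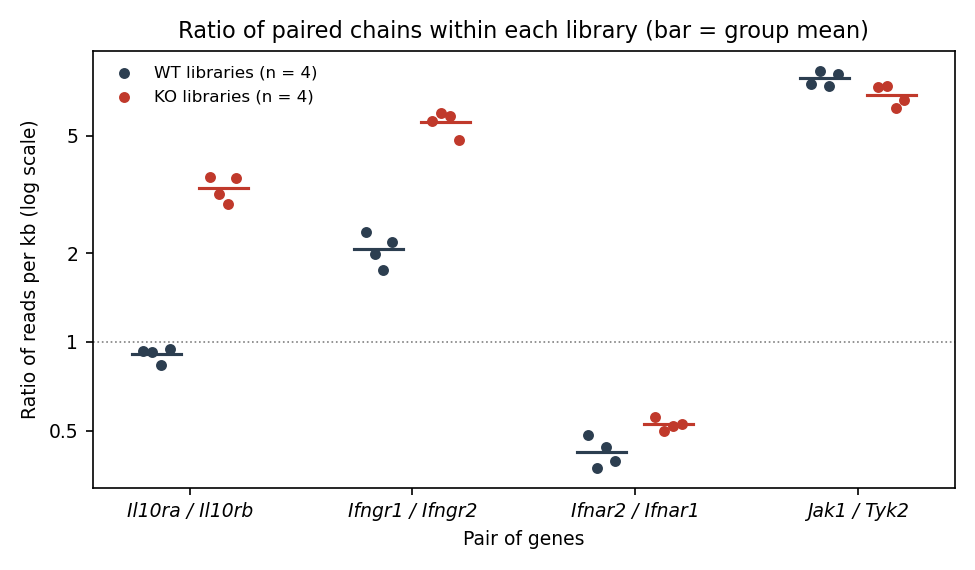
Ratio of RPKM values of paired genes within each library (log scale; dotted line at 1); points are 4 WT and 4 KO libraries and bars are group means. The Il10ra to Il10rb ratio lies between 0.834 and 0.945 in WT and between 2.93 and 3.63 in KO, and Jak1 to Tyk2 lies between 7.38 and 8.32 in WT and between 6.23 and 7.36 in KO.

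The surroundings of the genes were examined next, as these neighbours played no part in the choice. Of 29 tested genes within 200 kb of any of the 8, 1 passed the edgeR test and it was lower in KO (3.45%, against 6.39% of all tested genes). This was Cdkn2d, a cyclin-dependent kinase inhibitor gene 157 kb from Tyk2, with 68.4 CPM in KO and 80.8 CPM in WT (log2 fold change -0.23, SE 0.070, adjusted p = 0.0399). It lost its call in 9 of 16 alternatives, including DESeq2 and leaving out Sample_2907_KO, Sample_2908_KO, Sample_2910_KO, Sample_2911_WT, Sample_2913_WT or Sample_2915_WT, with adjusted p from 0.0266 to 0.138 over the alternatives. Without Sample_2911_WT the gene that passed was another, Raver2 beside Jak1 (adjusted p = 0.0411). Around Il10ra, 3 genes were tested. The nearest, BC049352, at 3.82 kb, held 69 reads in KO and 42 in WT (log2 fold change 1.11, SE 0.441, edgeR adjusted p = 0.152), and Jaml, an adhesion molecule gene, had 0.19 (adjusted p = 0.649). No gene near Ifngr1 had enough reads to be tested.

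Along the chromosome 16 cluster the log2 fold changes of the receptor genes fell from left to right, from 0.41 (Ifnar2) and 0.26 (Il10rb) to 0.09 (Ifnar1) and 0.02 (Ifngr2). None of the 10 tested neighbours on this chromosome passed the edgeR test or DESeq2, and 2 of them, Itsn1 and Cryzl1, had an unadjusted p under 0.05. Tmem50b, 8.88 kb after Ifngr2, had 0.15 (SE 0.116, adjusted p = 0.543), Son, which encodes a splicing factor, had -0.00053 (SE 0.051, adjusted p = 0.998), and Itsn1, an endocytic adaptor gene, had 0.54 (SE 0.208, adjusted p = 0.131). Beside Jak1, Raver2 lies on the opposite strand and overlaps it by 4 bases, with a log2 fold change of -0.28 (SE 0.119, edgeR adjusted p = 0.195).

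**Figure D3:**
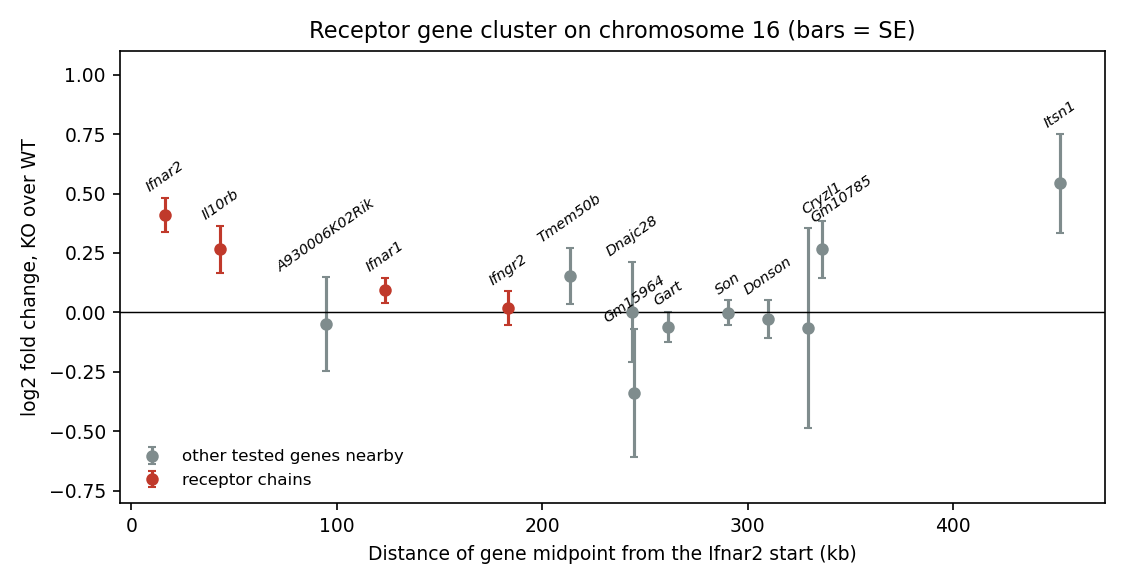
Log2 fold change (KO over WT, bars are SE) of the 4 receptor genes of the chromosome 16 cluster and of 10 tested neighbours, against distance of the gene midpoint from the Ifnar2 start in kb. The receptor genes go from 0.41 on the left to 0.02, and the neighbours lie on both sides of 0.

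The ligands of these receptors were at or near the limit of detection. Of 26 ligand genes, 22 had no read in any library, Ifng, Ifnb1 and Il22 among them. This allows up to 0.0882 CPM in the pooled KO reads and 0.0671 CPM in the pooled WT reads (3 reads, counting error only). Il10 had 0 reads in KO and 1 in WT, Il19 had 0 and 6, Ifnk 4 and 3, and Ifnz 4 and 3. The other chains of the family were likewise scarce. Il20ra, Il22ra1, Il22ra2 and Ifnlr1 had no read, F3 had 1 in KO and 2 in WT, and Il20rb, the single chain that could be tested, averaged 1.03 ± 0.75 CPM (KO) against 1.57 ± 0.22 CPM (WT; SD over 4 libraries; edgeR adjusted p = 0.524).

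Among the other kinases and STAT factors, 4 of 10 tested genes rose (40.0%, against 3.98% of all tested genes) and 0 fell. Their median log2 fold change was 0.16. Stat2 and Irf9, partners in the type I interferon complex, rose by 0.53 (SE 0.066, edgeR adjusted p = 1.23e-06) and 0.42 (SE 0.058, adjusted p = 7.35e-06). Jak2, the kinase of the IFNGR2 chain, had 0.11 (SE 0.058, adjusted p = 0.308). The calls of Stat3 and Stat6, the other 2, were less stable, and 2 calls were left without Sample_2907_KO or without Sample_2913_WT.

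Most feedback inhibitors and phosphatases of cytokine signalling did not pass. Of 15 tested, 3 rose and 0 fell (median log2 fold change 0.03), and without Sample_2908_KO 5 rose. The 3 were 20.0% of those tested, where 3.98% of all tested genes rose. Those that rose were Cish, a STAT5-induced inhibitor (1.45, edgeR adjusted p = 4.25e-08), Isg15 (1.37, adjusted p = 0.00362) and Usp18, which binds IFNAR2 and damps its signalling (0.93, adjusted p = 0.00873). Socs3, the IL-10-induced STAT3 feedback gene, averaged 212 ± 18.5 CPM (KO) against 210.4 ± 41.5 CPM (WT; SD over 4 libraries; edgeR adjusted p = 0.970). Socs1, which inhibits the interferon gamma receptor, averaged 35.9 ± 10.9 CPM against 25.7 ± 2.22 CPM (edgeR adjusted p = 0.202). The phosphatase genes Ptpn1, Ptpn2, Ptpn6 and Ptpn11 had log2 fold changes between -0.20 and 0.18 and did not pass. Ptpn2 was the only lower gene at an unadjusted p under 0.05 in any of the pathway lists given here and below, and neither edgeR nor DESeq2 called any member of these lists lower.

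For comparison with the class II chains, 10 chains of class I receptors that signal with JAK1 or TYK2 were tested (median log2 fold change 0.10). Of these, 3 rose (30.0%, against 3.98% of all tested genes) and 0 fell. They were Il2rb (1.26, edgeR adjusted p = 8.38e-10), Il7r (0.74, adjusted p = 0.0245) and Il4ra (0.27, adjusted p = 0.00846). Their shared partner Il2rg had 0.04 (adjusted p = 0.788), and the IL-6 signal transducer Il6st had -0.06 (adjusted p = 0.668). Without Sample_2911_WT and Sample_2914_WT together, 1 of the 10 passed. Il7r missed the threshold in 4 of the 8 fits that left out a single library (Sample_2914_WT, Sample_2911_WT, Sample_2908_KO or Sample_2907_KO).

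Genes that respond through these receptors were counted last. The 32 tested type I interferon response genes had a median log2 fold change of 0.95. Of these, 28 rose (87.5%, against 3.98% of all tested genes) and 0 fell. Slfn5 (1.12, edgeR adjusted p = 2.29e-09) and Ifi27l2a (0.97, adjusted p = 1.02e-10) were among them, as were Oasl2 (1.39, adjusted p = 6.61e-07) and Parp14 (0.47, adjusted p = 1.49e-06). Ifit2, Ifit3 and Ddx58 did not pass. The 25 tested interferon gamma response genes had a median of 0.28, and 7 rose (28.0%, against 3.98% of all tested genes) and 0 fell. These were the interferon-inducible GTPase genes Gbp6 (0.80, adjusted p = 6.29e-06), Tgtp1 (0.67, adjusted p = 6.37e-05), Irgm1 (0.48, adjusted p = 0.000946), Gbp7 (0.35, adjusted p = 0.00485) and Gbp4 (0.28, adjusted p = 0.0124), with the MHC class I activator Nlrc5 (0.21, adjusted p = 0.00958) and Cd274, which encodes PD-L1 (0.29, adjusted p = 0.0299). Cd274 lost its call in 6 of 16 alternatives, among them DESeq2 and leaving out Sample_2908_KO, Sample_2910_KO, Sample_2913_WT or Sample_2914_WT (adjusted p from 0.0120 to 0.192). Gbp4 and Nlrc5 lost theirs without Sample_2915_WT (adjusted p up to 0.0834 and 0.0518 over the alternatives). Gbp4 also lost its call without Sample_2911_WT and Sample_2914_WT together. Close relatives among the GTPase genes can share reads, so their split is uncertain. Irf1, which encodes an interferon-induced transcription factor, had 0.11 (adjusted p = 0.310), Gbp2 had 0.03 (adjusted p = 0.951), and Cxcl9 had no read. The count rose to 11 without Sample_2911_WT and to 14 with no count filter. The response lists share genes with each other and with the lists above, among them Stat2, Stat3, Irf9, Socs1, Socs3, Usp18, Isg15, Il4ra and Il21r, so the counts are not independent.

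The 16 tested STAT3 and IL-10 response genes had a median log2 fold change of 0.03. Of these 2, Il4ra and Stat3, rose (12.5%, against 3.98% of all tested genes) and 0 fell. Pim1 (0.36, edgeR adjusted p = 0.202) and Bcl3 (0.43, adjusted p = 0.147) did not pass, nor did the transcription factor genes Prdm1 and Nfil3. Il1rn, which encodes an antagonist of the IL-1 receptor, held 32, 2, 1 and 12 reads in the KO libraries and 2 in WT altogether, and was below the level needed for the test. This count was sensitive to single libraries: 1 gene passed without Sample_2907_KO, Sample_2910_KO, Sample_2911_WT or Sample_2914_WT, and 4 passed without Sample_2915_WT.

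**Figure D4:**
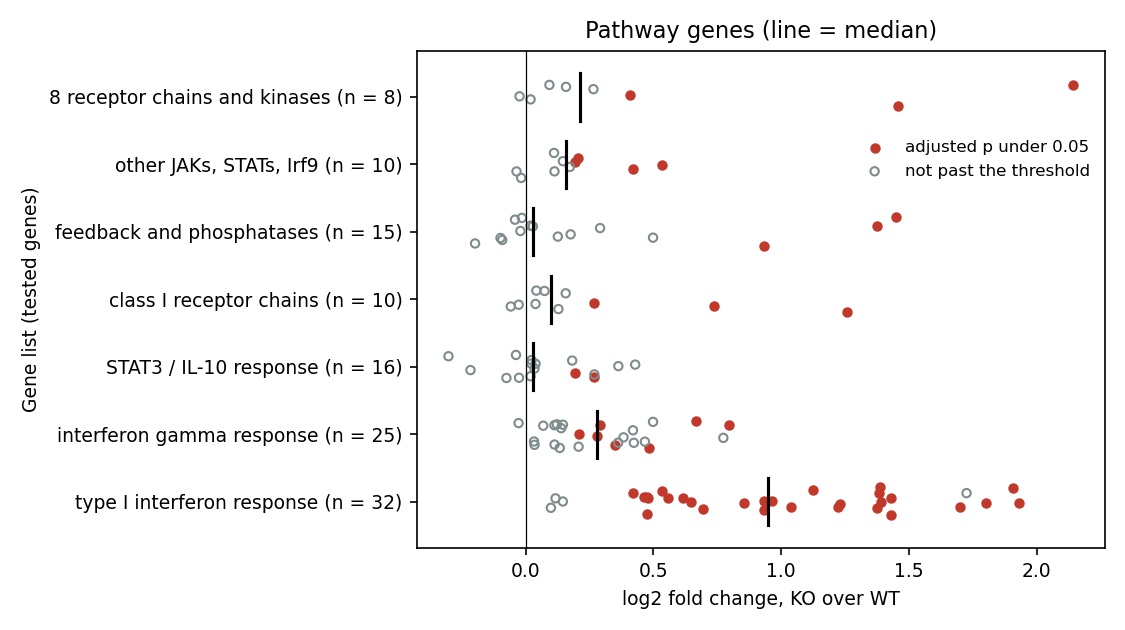
Log2 fold change (KO over WT) of every tested gene in 7 lists; filled points passed the edgeR test at an adjusted p under 0.05, open points did not, and lines are medians. The type I interferon list has a median of 0.95 and the STAT3 and IL-10 list 0.03.

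Markers of other cells were read beside these results, because regulatory T cells, activated T cells and myeloid cells express Il10ra or Ifngr1 as well. In bulk RNA, more cells of a type and more RNA per cell cannot be told apart. The summed level of 16 regulatory T cell markers was 313 to 418 CPM in KO and 239 to 277 CPM in WT, and 3 of 12 tested members rose and 0 fell. The sort kept cells without CD25, the product of Il2ra, and with little CD44, so the gate itself limits the levels of these genes. Foxp3, their lineage factor, was at 55.1, 93.2, 113 and 113 CPM in KO and 6.92 to 9.76 CPM in WT (edgeR adjusted p = 0.000881), where the Il10ra levels of the same KO libraries were 126, 116, 125 and 118 CPM. The others that rose were the costimulatory receptor gene Tnfrsf18 (log2 fold change 0.50, edgeR adjusted p = 0.00851), whose call was lost without Sample_2909_KO, and Izumo1r, a gene of the folate receptor family (0.35, adjusted p = 0.00108). Il2ra (5.31 ± 0.93 CPM in KO, 4.01 ± 0.71 CPM in WT; SD over 4 libraries; edgeR adjusted p = 0.392) and Ctla4 (8.99 ± 1.86 and 7.90 ± 3.33 CPM; adjusted p = 0.847) did not pass. Lrrc32 had 0 reads in KO and, in WT, 25 in Sample_2914_WT, 14 in Sample_2915_WT and 1 in each of the other two.

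The 18 markers of activated and memory T cells summed to 539 to 634 CPM in KO and 414 to 482 CPM in WT. Of 10 tested, Cd69, Ly6a and Pdcd1 rose and Cd44 fell (40.0% called, against 6.39% of all tested genes). Cd44 lost its call in 5 of 16 alternatives, among them leaving out Sample_2909_KO, Sample_2910_KO, Sample_2914_WT or Sample_2915_WT (edgeR adjusted p from 0.0152 to 0.128). The 15 myeloid markers summed to 21.2 to 30.4 CPM in KO and 13.4 to 42.7 CPM in WT, with Sample_2911_WT the highest, and 1 of 4 tested, Ly6c2, rose, but not without Sample_2909_KO, Sample_2910_KO, Sample_2913_WT or Sample_2915_WT. S100a8, S100a9 and Lyz1 had no read. The 10 B cell markers summed to 359.9 to 415 CPM in KO and 446 to 485 CPM in WT, nearly all of it Ighm, which fell (edgeR adjusted p = 0.00132). NK and CD8 T cell markers summed to 69.1 to 73.6 CPM in KO and 94.1 to 112 CPM in WT. Of 5 tested 2 fell (40.0%, against 2.41% of all tested genes), Ctsw and Klrd1, the latter not without Sample_2915_WT. The part of these cells in the results for the receptor genes was not tested.

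The genes most like Il10ra and Ifngr1 in pattern were sought among 9059 protein-coding genes averaging 5 CPM or more, by Pearson's r of log2 CPM over the 8 libraries. The 8 points form 2 groups, KO and WT, so a high r mainly restates a gap between groups with little spread inside them. For Il10ra the closest were Prr13 (r = 0.995, 149 ± 6.92 CPM against 52.4 ± 5.20 CPM), the endocytic receptor gene Lrp10 (r = 0.993), Tdrd7 (r = 0.992), Hmbox1 (r = 0.990) and Xdh, the xanthine dehydrogenase gene (r = 0.990). For Ifngr1 they were Psen2 (r = 0.990), Gch1, the first enzyme of tetrahydrobiopterin synthesis (r = 0.989), the tropomyosin gene Tpm4 (r = 0.988), Hmbox1 (r = 0.987) and Samhd1, a dNTP hydrolase gene (r = 0.985). Prr13 rose 2.86-fold and Gch1 2.37-fold, less than the 4.42-fold of Il10ra and the 2.75-fold of Ifngr1. Il10ra and Ifngr1 themselves had r = 0.977.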

How the data were processed

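Poly(A) RNA was sequenced as single reads from an unstranded TruSeq v2 kit, per the labels' protocols. Per the submitters' processing notes the build was mm10 and the tools included DESeq2 1.22.2, R 3.5.3, CASAVA 1.8.2 and FastQC. No source used here gives the aligner, counter or annotation. The authors deposited raw read counts for 53465 Ensembl IDs and a normalized signal table of 16418 genes, in which each count was found to be divided by 1 size factor per sample.

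Counts of 4 KO and 4 WT samples, grouped by their titles, were tested with edgeR 4.0.16 (R 4.3.3; TMM, filterByExpr, robust quasi-likelihood F test, Benjamini-Hochberg over 11772 genes). Standard errors (SE) divide the size of the log2 fold change by the root of its F value. RPKM used merged exons of GENCODE M21. On simulated counts for this comparison (11621 genes) the test recovered 86.6% of genes changed 1.5-fold and 98.5% changed 2-fold, and 2.6% of calls were unchanged genes. The changed genes were drawn from those averaging 5 CPM or more, and no change smaller than 1.5-fold was simulated. Alternatives were DESeq2 1.42.0, limma 3.58.1 (voom, or trend on log2 of the normalized values plus 1), RLE or library-size scaling, other filters, longest transcripts as lengths, and leaving samples out. Leaving out Sample_2911_WT and Sample_2914_WT together, and the lengths of chain ratios, were added after seeing the data.

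The members and gene lists were chosen with earlier results of these data known. Named were the 8 genes, up to 6 called members of lowest adjusted p per list and genes asked about in the text, called and nearest neighbours, and the 5 genes most like Il10ra and Ifngr1. Other genes named in lists were chosen after their values were seen. Some genes of the lists enter the counts but are not reported here by name.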

Additional observations from a re-analysis of the deposited data

Results flagged for a closer look

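Dixon's test for a library far from the others of its group was run on the 8 genes and the summed marker lists, 28 groups of 4 libraries in all, and chance flags about 1 in 20 such groups. It picked out 1. The summed level of the regulatory T cell markers in Sample_2914_WT, the deepest library, was 277 CPM, above the other WT libraries at 239, 243 and 245 CPM and below every KO library. None of the 8 receptor and kinase genes was picked out in either group.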

How the results depend on the processing

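Il10ra, Ifngr1 and Ifnar2 passed the threshold in all 16 alternatives and the other 5 genes in none of them. Log2 fold changes over these alternatives ran from 2.10 to 2.17 for Il10ra, 1.39 to 1.51 for Ifngr1, 0.38 to 0.49 for Ifnar2 and 0.18 to 0.34 for Il10rb. Without Sample_2911_WT and Sample_2914_WT, 481 genes changed overall (752 with all libraries), 1 class I chain, 0 STAT3 and IL-10 response genes and 0 neighbours passed, the log2 fold change of Ifnar1 was 0.037 and that of Tyk2 0.25. With DESeq2, 4 STAT3 and IL-10 response genes and 0 neighbours passed; with no count filter 5 of the former, 0 neighbours and 14 interferon gamma response genes; with library size only 1 STAT3 and IL-10 response gene. The cause was not tested. Leaving out 1 sample at a time gave 0 to 1 neighbours, 2 to 4 kinases and STAT factors, 3 to 5 inhibitors, 1 to 4 STAT3 and IL-10 response genes and 6 to 11 interferon gamma response genes. With the longest transcript as length, 6 of 8 genes kept their place in the WT order, Ifnar1 then standing above Ifngr1, and the chain ratios in WT and KO were 0.665 and 2.45 (Il10ra to Il10rb), 2.75 and 7.39 (Ifngr1 to Ifngr2), and 0.304 and 0.378 (Ifnar2 to Ifnar1). Ligand genes could be tested with no count filter only, where 0 of 4 passed. No paired analysis was possible because KO and WT samples share no numbers. Depth limits the ligands and the scarce receptor chains.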
